A study of Caenorhabditis elegans with 52 samples.

Results

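A set of 10 genes of the RAS-ERK signalling pathway of Caenorhabditis elegans was followed through 3 genotypes and up to 18 h of treatment with an inhibitor of that pathway. They were let-60 (ZK792.6), lin-45 (Y73B6A.5), mek-2 (Y54E10BL.6), mpk-1 (F43C1.2), ksr-1 (F13B9.5), ksr-2 (F58D5.4), lip-1 (C05B10.1), ark-1 (C01C7.1), lin-1 (C37F5.1) and sos-1 (T28F12.3), taken by these gene IDs in the count tables (10 of 45461 IDs). All 10 passed the filter on low counts, which asked for a CPM, a gene's count scaled to the total assigned to genes, of 1 or more in 2 or more libraries.

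In this pathway SOS-1, an exchange factor, loads the RAS protein LET-60 with GTP, and LET-60 then activates the RAF kinase LIN-45. LIN-45 phosphorylates the MEK kinase MEK-2, which phosphorylates the ERK kinase MPK-1, and KSR-1 and KSR-2 are scaffolds that hold these kinases together. LIN-1 is an ETS transcription factor that MPK-1 phosphorylates. ARK-1 is a tyrosine kinase that dampens signalling from the EGF receptor, and LIP-1 is a dual-specificity phosphatase that removes phosphate from MPK-1. In the hermaphrodite germ line the pathway is known for its part in pachytene exit, oocyte growth and the choice between sperm and oocyte. U0126 blocks the activity of MEK, which mRNA levels do not measure.

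The worms were whole young adult hermaphrodites, grown to young adulthood on seeded plates from synchronized L1 larvae. PL was the double mutant puf-8; lip-1 (24 libraries), PF carried mutations of puf-8 and fbf-1 (10 libraries), and N2 was the wild type (18 libraries). The mutation of puf-8 is common to PL and PF, which differ in the second gene, and the labels give no alleles. Both PUF-8 and FBF-1 belong to the PUF family of RNA-binding proteins, which repress mRNAs in the germ line. Worms were collected after time with 100 uM U0126 or with its solvent DMSO, in 1 mL of S medium that held OP50 as food, or untreated. PL was sampled at 1, 2, 4, 6 and 18 h, PF at 1, 2, 4 and 6 h, and N2 at 1, 2, 6 and 18 h. PL at 1 h had 3 libraries in each treatment, PF had 1 at each hour of treatment, and every other group had 2. The design compares strains that can and cannot change germline sex under the drug with the wild type.

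The libraries held 5370270 to 35120700 counts assigned to genes. The mutated genes were low where the labels place the mutations: puf-8 stood at 3.22 to 36.6 CPM in PL and 3.38 to 11.8 in PF, against 26.2 to 221 in N2, and fbf-1 at 0.357 to 3.88 CPM in PF, against 11.3 to 52.7 in N2. The library labelled N2 untreated replicate 2 stood apart from its partner, with a correlation of 0.337 across genes, 721 CPM of the sperm gene gsp-3 and 57.1 of the oocyte gene rme-2. Results that use it are given with and without it. In PL at 1 h, replicates 1 and 2 stood apart from replicate 3 in both treatments, with correlations across genes of 0.876 to 0.901 with it and of 0.993 in DMSO and 0.988 in U0126 with each other. Their summed level of oocyte markers was 155 and 170 CPM in U0126, against 415 CPM in replicate 3, and 169 and 196 CPM in DMSO, against 462 CPM. Counts of mek-2, ksr-1, sos-1, lip-1 and lin-45 are less certain, because exons of each overlap a gene on the other strand and the library kit does not mark strand. The labels do not say that replicates were separate cultures, so p-values measure the spread between these libraries, which may be technical.

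By median level per length, mpk-1, let-60 and lin-45 stood at the top in the wild type. Over the 17 N2 libraries without untreated replicate 2, the median level per kilobase of exon was 83.7 CPM for mpk-1, 58.2 for let-60, 56.3 for lin-45, 35.6 for mek-2, 29.0 for lip-1, 27.8 for ksr-2, 19.996 for ark-1, 17.3 for sos-1, 4.796 for ksr-1 and 2.18 for lin-1. Ranges of neighbours in that order overlapped, except those of sos-1, at 12.2 to 21.4 CPM per kilobase, and ksr-1, at 3.54 to 7.28. The ranges of the 2 scaffold genes did not overlap, ksr-2 being the abundant one. In the 20 PL libraries up to 6 h the order was let-60 (33.5), mpk-1 (22.8), mek-2 (21.1), ksr-2 (12.2), sos-1 (11.8), lin-45 (11.6), ark-1 (8.18), lin-1 (5.37), ksr-1 (4.75) and lip-1 (0.697 CPM per kilobase). Expressed this way lin-45 was the third gene in N2 and the sixth in PL, and lin-1 exceeded ksr-1 at the median in PL. Neighbours in the PL order overlapped except let-60 and mpk-1, lin-45 and ark-1, and ksr-1 and lip-1. In the 10 PF libraries the medians were 34.5 for let-60, 24.3 for mpk-1, 21.2 for mek-2, 12.7 for sos-1, 11.99 for lin-45, 11.4 for ksr-2, 8.11 for ark-1, 7.38 for lin-1, 4.92 for ksr-1 and 2.53 CPM per kilobase for lip-1, and the one pair of neighbours that did not overlap was mek-2 and sos-1.

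**Figure D1:**
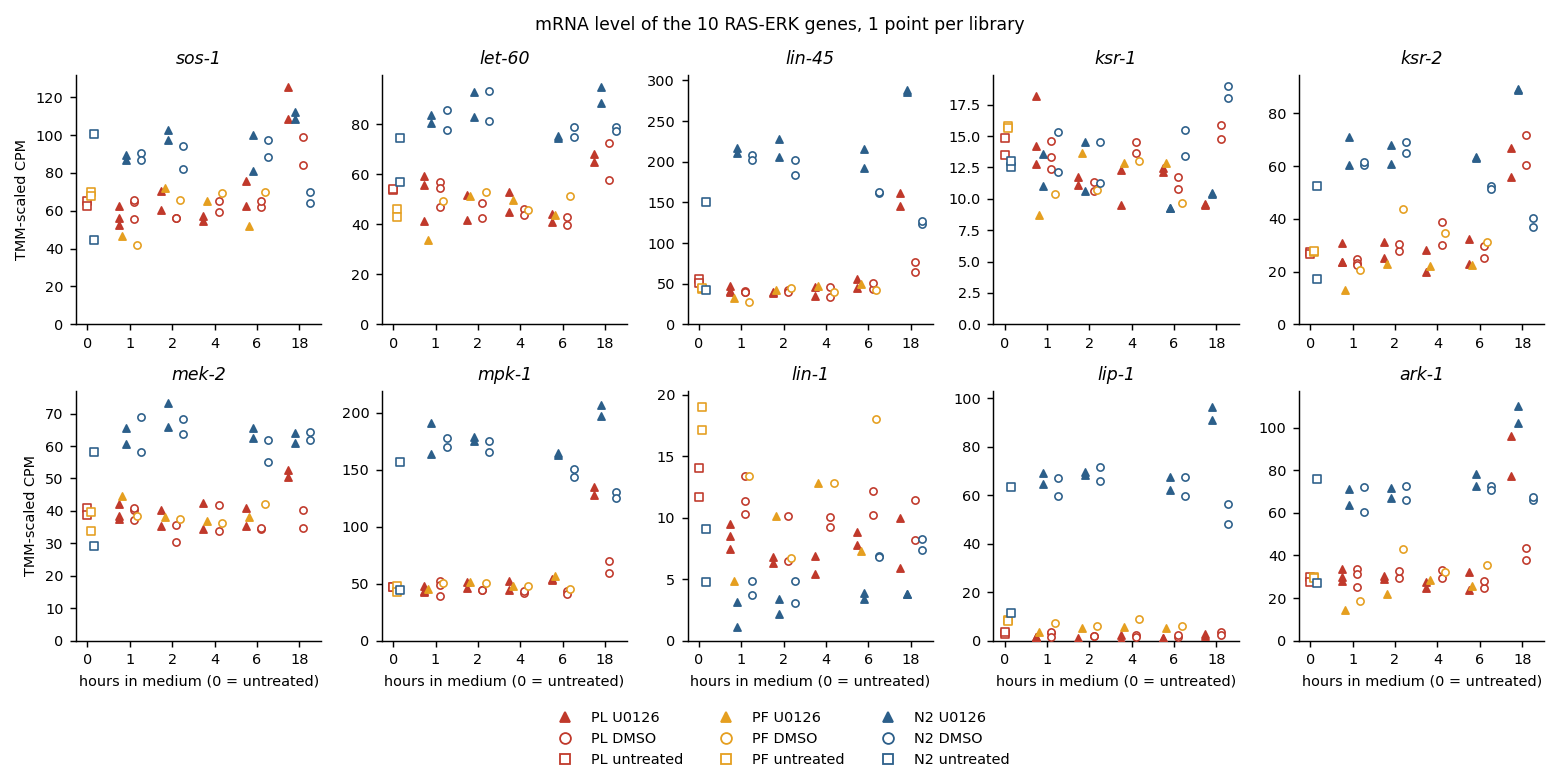
Level of each of the 10 genes in TMM-scaled CPM (vertical axis, linear, from 0) against hours in medium (0 is untreated; hours are evenly spaced, not to scale), 1 point per library. PL is red, PF orange and N2 blue, with triangles for U0126, circles for DMSO and squares for untreated worms. For lin-45 and mpk-1 the PL and PF points up to 6 h lie below 60 CPM and the N2 points above 120, apart from N2 untreated replicate 2 at 42.4 and 44.2.

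In DMSO at 2 h, mRNA of nearly the whole pathway was lower in PL than in N2. The RAF gene lin-45 had 41.9 and 40.4 CPM in PL, against 203 and 183 CPM in N2, a 4.69-fold lower level (log2 fold change -2.23, SE 0.30, adjusted p = 1.33e-06 by edgeR's quasi-likelihood test). The ERK gene mpk-1 had 44.4 and 44.1 CPM in PL, against 175 and 166 CPM in N2, which was 3.86-fold lower (log2 fold change -1.95, SE 0.28, adjusted p = 3.93e-06). The PL libraries of both genes lay below both N2 libraries of this comparison.

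The other kinase and scaffold genes moved less. The MEK gene mek-2 had 35.7 and 30.5 CPM in PL, against 68.3 and 63.8 CPM in N2 (log2 fold change -0.996, SE 0.19, adjusted p = 0.000106). The RAS gene let-60 had 42.7 and 48.5 CPM in PL, against 93.2 and 81.3 CPM in N2 (log2 fold change -0.94, SE 0.16, adjusted p = 2.31e-05). The scaffold gene ksr-2 had 27.9 and 30.3 CPM in PL, against 64.8 and 69.2 CPM in N2 (log2 fold change -1.20, SE 0.28, adjusted p = 0.000698). These 3 genes fell by 1.99-fold, 1.91-fold and 2.30-fold in that order, less than lin-45 and mpk-1. The exchange factor sos-1 stood at 56.0 and 56.2 CPM in PL, against 94.2 and 81.9 CPM in N2 (log2 fold change -0.65, SE 0.21, adjusted p = 0.00786). The second scaffold, ksr-1, was not called, with 10.6 and 11.4 CPM in PL, against 11.2 and 14.5 CPM in N2 (log2 fold change -0.23, 95% interval -0.61 to 0.16, adjusted p = 0.286). Its PL and N2 libraries overlapped, unlike those of the other 4 genes.

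In all, 9 of the 10 genes were called in this comparison, 8 lower and 1 higher in PL, while 66.1% of all 16462 genes tested were called, 31.5% lower and 34.6% higher. The median log2 fold change of the 10 genes was -1.08, against 0.46 over all genes tested. The lower genes and this median include lip-1, the gene mutated in PL, here and in the other comparisons of PL with N2. The genes thus lay on the lower side of a comparison in which most genes differed. At 6 h in DMSO the count was 8, all lower in PL (60.4% of all genes called, 33.8% lower; median -0.91, against -0.08 over all genes). There lin-45 had 42.9 and 50.6 CPM in PL, against 161 and 162 CPM in N2 (log2 fold change -1.79, adjusted p = 2.27e-05 by edgeR), and mpk-1 had 43.9 and 41.1 CPM in PL, against 144 and 151 CPM in N2 (log2 fold change -1.79, adjusted p = 1.63e-05). Relative log expression (RLE) scaling, which moved the median of all genes to 0.17, gave 6 lower and 1 higher: ksr-2 (-0.64, adjusted p = 0.0529) and sos-1 (-0.27, adjusted p = 0.265) lost their call and lin-1 gained one (0.99, adjusted p = 0.0164). Leaving out N2 DMSO replicate 2 at 6 h gave 5 calls.

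The inhibitors of the pathway were lower too. The phosphatase gene lip-1, mutated in PL, had 2.01 and 1.75 CPM in PL, against 71.8 and 65.7 CPM in N2, in DMSO at 2 h. That is 36.3-fold lower (log2 fold change -5.18, SE 0.58, adjusted p = 1.67e-07 by edgeR). Over all libraries lip-1 ran from 0.359 to 3.72 CPM in PL (median 1.82), from 3.40 to 9.02 in PF (median 5.86), and from 11.5 to 96.4 in N2 (median 66.5). The 11.5 CPM belonged to N2 untreated replicate 2, and the next lowest N2 library had 48.3. No library of one genotype overlapped another apart from PL and PF, whose ranges met between 3.40 and 3.72 CPM. So lip-1 mRNA was also low in PF, whose labels name no mutation of lip-1. The receptor-dampening kinase gene ark-1 had 29.3 and 32.6 CPM in PL, against 65.9 and 72.6 CPM in N2, at 2 h in DMSO (log2 fold change -1.16, SE 0.26, adjusted p = 0.000369).

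The transcription factor gene lin-1 went the other way. It had 10.2 and 6.43 CPM in PL, against 3.04 and 4.85 CPM in N2, in DMSO at 2 h, 2.10-fold higher (log2 fold change 1.07, SE 0.36, adjusted p = 0.0102 by edgeR). The groups did not overlap, but lin-1 was scarce, with 14 to 377 reads per library. Leaving out each of the 4 libraries in turn gave log2 fold changes of 0.64 to 1.45 with adjusted p of 0.00667 to 0.218, and the call was lost in 2 of 4, without replicate 1 of PL or of N2. At 6 h the adjusted p was 0.0848 (log2 fold change 0.71).

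**Figure D2:**
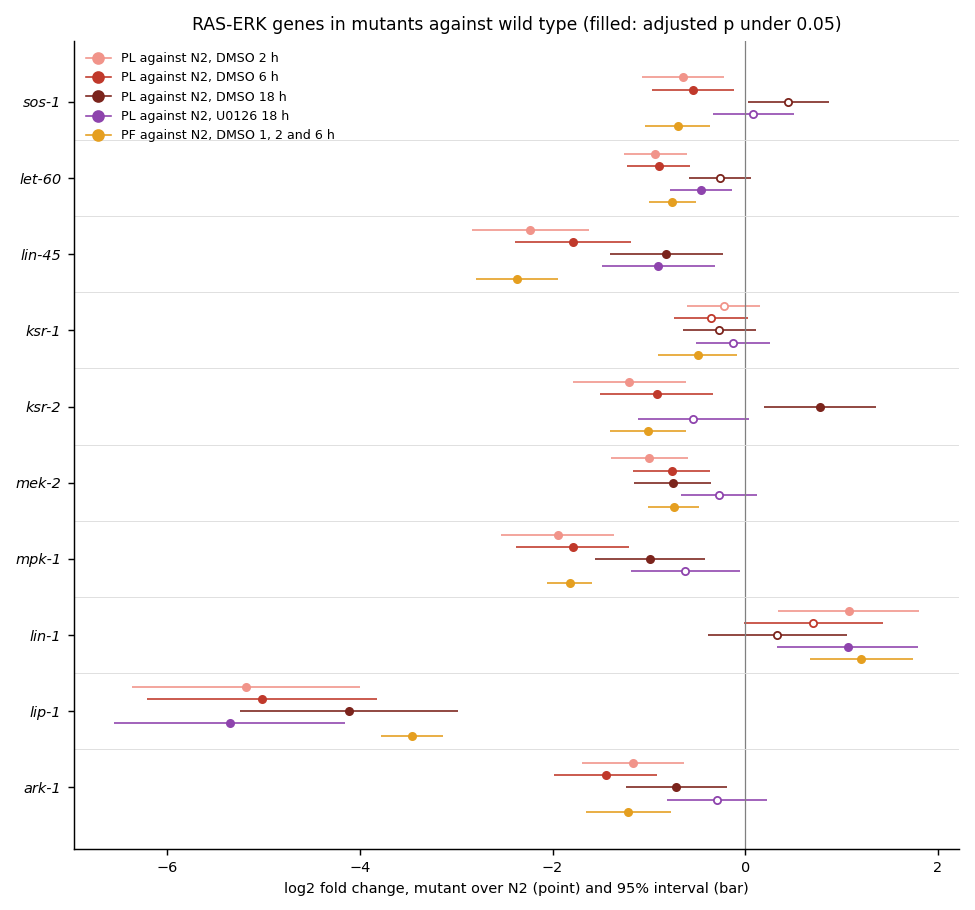
Log2 fold change of each gene (horizontal axis; PL or PF over N2) in 5 comparisons, with 95% intervals from edgeR's quasi-likelihood fit; filled points have an adjusted p under 0.05. The points of lip-1 lie farthest left, lin-45 and mpk-1 follow in DMSO at 2 and 6 h (-2.23 to -1.79), and lin-1 lies right of 0 in each.

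In PF, the other mutant, 9 genes were lower than in N2 and lin-1 was higher, in a comparison that shares N2 libraries with those of PL. PF had 1 library per hour, so PF and N2 in DMSO were fitted over 1, 2 and 6 h with hour as a factor. All 10 genes were called, where 74.3% of all 14493 genes tested were called, 37.9% lower and 36.4% higher (9 genes, 8 lower and 1 higher, with RLE scaling or DESeq2). The median of the 10 genes was -0.88, against 0.07 over all genes, or 0.24 with RLE scaling. In PF at 1, 2, 4 and 6 h in DMSO, lin-45 had 27.1, 44.9, 39.9 and 41.7 CPM, and every N2 DMSO library up to 6 h had at least 161 (log2 fold change -2.37, SE 0.19, adjusted p = 1.82e-06 by edgeR). At the same hours mpk-1 had 50.8, 50.7, 48.4 and 45.2 CPM in PF, against at least 144 in N2 (log2 fold change -1.82, SE 0.11, adjusted p = 2.03e-07). The phosphatase gene lip-1 had 7.31, 5.87, 9.02 and 5.86 CPM in PF, against at least 59.7 in N2, and was 10.97-fold lower (log2 fold change -3.46, SE 0.14, adjusted p = 4.22e-08). The 3 genes did not overlap between PF and N2, which was not counted over all genes.

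The rest of the cascade changed by smaller steps in PF: ark-1 by -1.21, ksr-2 by -1.01, let-60 by -0.76, mek-2 by -0.74, sos-1 by -0.70 and ksr-1 by -0.50 on the log2 scale. The call of ksr-1 (adjusted p = 0.0329 by edgeR) was lost without the 1 h libraries (adjusted p = 0.0964) or the 6 h libraries (adjusted p = 0.189). The transcription factor gene lin-1 rose in PF, with 13.4, 6.74, 12.9 and 18.0 CPM in DMSO at 1, 2, 4 and 6 h, against 3.04 to 6.90 in N2 up to 6 h (log2 fold change 1.20, SE 0.24, adjusted p = 0.00112 by edgeR). The PF library at 2 h lay within the N2 range and the other 3 above it. The gene stayed called without any single hour, at 1.06 to 1.42.

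Between the 2 mutants, 1 of the 10 genes was called, lip-1. In DMSO at 1 to 6 h it was lower in PL than in PF, with a log2 fold change of -1.68 (SE 0.25, 95% interval -2.23 to -1.13, adjusted p = 0.00637 by edgeR, with 8.79% of all genes called, 3.73% lower). Without the 6 h libraries its value was -1.76 with adjusted p = 0.0545. For mpk-1 the interval of the difference was -0.33 to 0.09 (log2 fold change -0.12) and for lin-45 it was -0.10 to 0.45 (0.18).

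Before treatment the comparisons with N2 rest on a pair of unlike N2 libraries. Untreated lin-45 had 55.8 and 51.1 CPM in PL and 44.01 and 44.4 in PF, against 150 and 42.4 in N2, and untreated mpk-1 had 47.2 and 47.4 CPM in PL and 47.5 and 42.7 in PF, against 157 and 44.2 in N2. The second N2 library thus lay near the mutants for both kinases. edgeR called 5 genes between PL and N2 (38.1% of all genes, 25.7% lower and 12.4% higher), namely lip-1 (-3.52), mpk-1 (-1.09), lin-45 (-0.85), ark-1 (-0.83) and lin-1 (0.89). It called 6 between PF and N2 (34.5%, 25.8% lower and 8.69% higher), which were lip-1 (-2.16), mpk-1 (-1.16), lin-45 (-1.12), ark-1 (-0.80), let-60 (-0.56) and lin-1 (1.38). Without N2 untreated replicate 2, 9 genes were called between PL and N2, 8 lower and 1 higher, and 9 between PF and N2, but 65.8% and 62.5% of all genes were called in those fits. Without N2 untreated replicate 1, lin-45 was at 0.33 and mpk-1 at 0.10 in PL over N2, and 2 genes were called between PF and N2. Leaving out PL replicate 1 gave 3 calls between PL and N2, and leaving out PL replicate 2 gave 2. Between PL and PF untreated, edgeR called 0 of the 10 genes (1.01% of all genes), 1 at an unadjusted p under 0.05, and DESeq2 0. That gene was lip-1, with 2.82 and 3.72 CPM in PL, against 8.64 and 8.03 in PF (log2 fold change -1.36, 95% interval -2.40 to -0.31, adjusted p = 0.246); without N2 untreated replicate 2, which enters the shared estimate of spread, its adjusted p was 0.0126.

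Markers of germ cells and of the soma moved with genotype. The summed level of 12 oocyte genes was 614 and 534 CPM in PL, against 9988 and 9543 CPM in N2, in DMSO at 2 h, and all 12 were called lower in PL. In the same comparison 11 of 12 germ cell and meiosis genes were called lower in PL and 12 of 13 sperm gene IDs higher. In the soma, 10 of 10 muscle genes and 7 of 9 intestine genes were called higher. The neuron list had 6 of 10 genes higher and 2 lower. The somatic gonad list had 5 of 10 higher and 3 lower, yet its sum was smaller in PL, spanning 387 to 429 CPM where N2 spanned 525 to 573. That list also holds inx-14, inx-22 and ppw-1, which are active in germ cells, so its sum is not a measure of the soma alone. At 18 h in DMSO the neuron list leaned the other way, with 0 of 10 genes called higher in PL and 5 lower. Over all libraries up to 6 h the oocyte sum ran from 155 to 1544 CPM in PL and from 170 to 328 in PF, against 6082 to 12012 in N2 at any hour without untreated replicate 2, which had 474. The sperm sum was 518 to 1499 CPM in PL up to 6 h and 1521 to 2379 in PF, against 33.2 to 70.2 in N2, with 2960 in untreated replicate 2. No gene of these lists was at 0 in a library, apart from up to 7 of 13 sperm IDs in N2. In whole worms, fewer cells of a type and less RNA per cell cannot be told apart, and the part of cell make-up in the differences of the 10 genes was not tested.

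**Figure D3:**
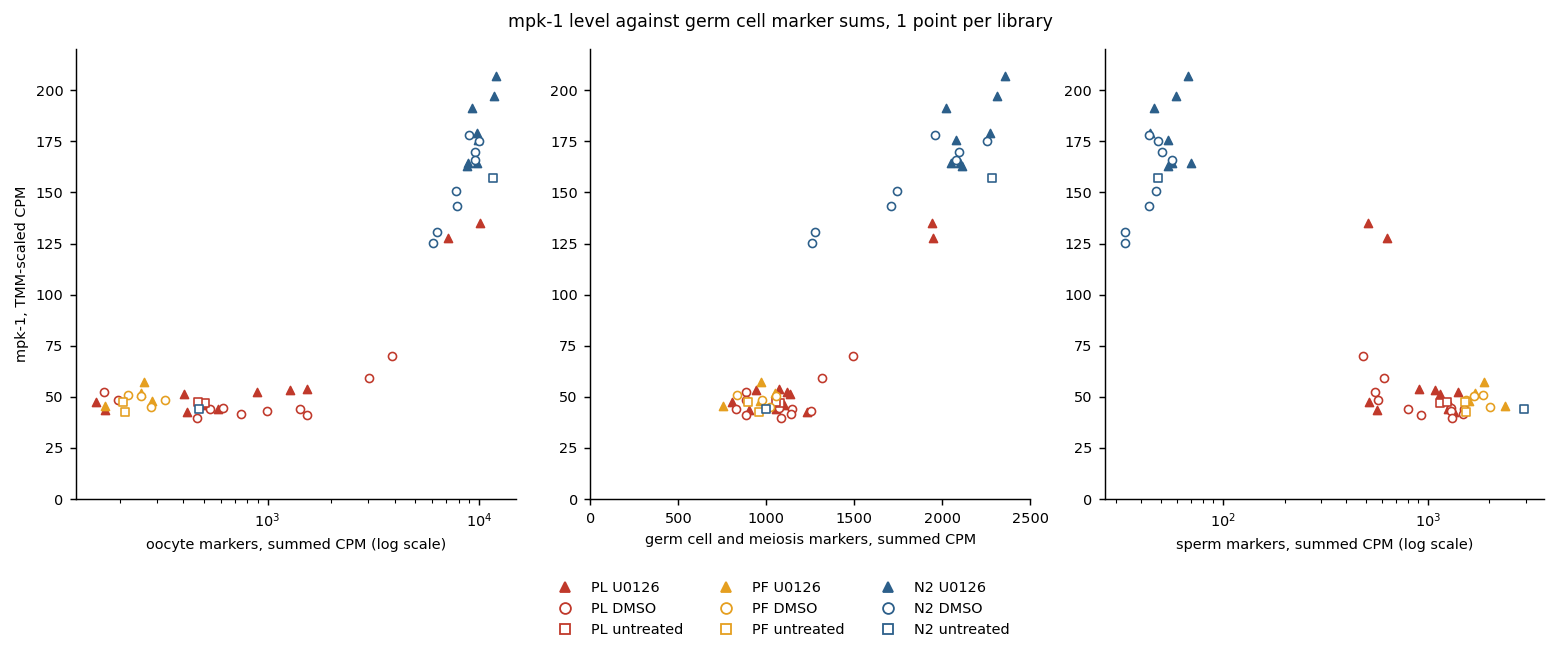
Level of mpk-1 (vertical axis, TMM-scaled CPM) against the summed level of the oocyte, germ cell and meiosis, and sperm marker genes (horizontal axes, CPM), 1 point per library. PL is red, PF orange and N2 blue. N2 libraries apart from untreated replicate 2 lie at high oocyte sums and above 120 CPM of mpk-1, and the PL libraries at 18 h in U0126, at 135 and 128 CPM, lie beside N2.

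At 18 h in DMSO the kinase genes lin-45, mek-2, mpk-1 and ark-1 were still lower in PL, while the scaffold gene ksr-2 was higher. There 6 genes were called between PL and N2 (43.4% of all genes, 23.1% lower and 20.3% higher), 5 lower and 1 higher in PL. The medians were -0.49 for the 10 genes and -0.18 for all genes, the second moving to 0.00 with RLE scaling. The scaffold gene ksr-2 had 71.8 and 60.2 CPM in PL, against 40.1 and 37.1 CPM in N2 (log2 fold change 0.77, SE 0.28, adjusted p = 0.0293 by edgeR). The MEK gene mek-2 had 40.2 and 34.7 CPM in PL, against 62.0 and 64.3 CPM in N2 (-0.75, adjusted p = 0.00324). The ERK gene mpk-1 had 70.0 and 59.3 CPM in PL, against 131 and 125 CPM in N2 (-0.99, adjusted p = 0.00632), and lip-1 was still 3.59 and 2.43, against 56.6 and 48.3 (-4.11, adjusted p = 8.24e-06). The other calls were lin-45 (-0.82, adjusted p = 0.0228) and ark-1 (-0.72, adjusted p = 0.0262). The libraries of these genes did not overlap between PL and N2, which was not counted over all genes. Several calls needed all 4 libraries. Leaving out any 1 of the 4 libraries ended those of ksr-2 (adjusted p of 0.0526 to 0.150), lin-45 and ark-1, and the count of calls was 1 without N2 replicate 1, N2 replicate 2 or PL replicate 2, and 3 without PL replicate 1. With RLE scaling 3 genes were lower and 2 higher, sos-1 being added (0.64, adjusted p = 0.0166).

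In U0126 at 18 h, 4 genes were called between PL and N2 (41% of all genes, 12.6% lower and 28.4% higher): lip-1 (-5.35), lin-45 (-0.90, adjusted p = 0.0137 by edgeR) and let-60 (-0.46, adjusted p = 0.0215) lower in PL, and lin-1 higher (1.06, adjusted p = 0.0192). The median was -0.38 for the 10 genes and 0.19 for all genes, and the second was -0.13 with RLE scaling, which called 8 genes, all lower in PL. Those were let-60, lin-45, mek-2, mpk-1, ksr-1, ksr-2, lip-1 and ark-1, while lin-1 lost its call (0.72, adjusted p = 0.0882). The shares of all genes given above belong to the TMM-scaled fit and are not the background of the RLE count. Leaving out PL U0126 replicate 1 gave 2 calls.

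In the first 6 h none of the 10 genes was called with U0126 in any genotype in edgeR's fits as designed. In N2, edgeR called 0 of them at 1 h (0.0243% of all genes), 0 at 2 h (0.711%) and 0 at 6 h (1.42%). At an unadjusted p under 0.05 there were 1, 0 and 2, and DESeq2 called 0 at each hour. At 6 h a fit of the compared N2 libraries alone called 5, 3 higher and 2 lower (39.4% of all genes), and the fit without N2 untreated replicate 2 called 1, lower. In PL, edgeR called 0 at 1, 2, 4 and 6 h (0.249%, 0.948%, 1.25% and 0.231% of all genes), with 0, 1, 0 and 0 at an unadjusted p under 0.05 and 0 by DESeq2. In PF over 1 to 6 h it called 0 (0.641%), with 2 at an unadjusted p under 0.05, 0 by DESeq2 and 1, lower, without the filter on low counts. The nearest to a call in PF was ksr-2, with 12.9, 22.8, 21.97 and 22.4 CPM in U0126 at 1, 2, 4 and 6 h, against 20.7, 43.6, 34.5 and 31.3 in DMSO (log2 fold change -0.67, 95% interval -0.99 to -0.35, adjusted p = 0.0900 by edgeR). Its U0126 library lay below the DMSO library at 4 of 4 hours, and so did those of lip-1 and ark-1, which was not counted over all genes. Without the 6 h libraries ksr-2 was called (-0.75, adjusted p = 0.0365 by edgeR).

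For the transcription factor gene lin-1 the log2 fold change of U0126 over DMSO was negative at every hour sampled in N2 and PL. In N2 it was -0.99 at 1 h, -0.51 at 2 h, -0.91 at 6 h and -1.05 at 18 h, and in PL -0.46, -0.34, -0.65, -0.43 and -0.31 at 1, 2, 4, 6 and 18 h. At 6 h in N2 lin-1 had 3.39 and 3.89 CPM in U0126, against 6.90 and 6.83 in DMSO. All U0126 libraries lay below all DMSO libraries at 3 of 4 hours in N2 and 3 of 5 in PL, which was not counted over all genes. In PF, with 1 library per treatment and hour, the U0126 library lay below the DMSO library at 3 of 4 hours. At 4 h these PF libraries were nearly equal, at 12.83 CPM in U0126, against 12.86 in DMSO. At 2 h lin-1 was higher in U0126 in PF, at 10.1 CPM, against 6.74. Averaged over the 4 hours in N2, a comparison added after these values were seen, the log2 fold change was -0.87 (SE 0.18, 95% interval -1.23 to -0.50, adjusted p = 0.00213 by edgeR, where 15.7% of all genes were called, 12.1% lower and 3.58% higher). It remained called without each of the 16 libraries in turn, with adjusted p of 0.00017 to 0.0284. In PL the average over 5 hours was -0.44 (adjusted p = 0.0911), and DESeq2 called it (adjusted p = 0.0222). The same average in N2 called ksr-1 (-0.42, adjusted p = 0.00383) and lin-45 (0.44, adjusted p = 0.0367), of which the first was lost without 11 of the 16 libraries and the second without U0126 replicate 2 at 1 h, DMSO replicate 2 at 2 h or U0126 replicate 1 at 2 h (adjusted p of 0.0558 to 0.0833 for lin-45). RLE scaling moved the median of all genes from -0.10 to 0.04 in this average and called 3 genes higher and 2 lower, against 1 and 2 here and 6 and 2 by DESeq2. Without N2 untreated replicate 2, which enters the shared estimate of spread, 5 were higher and 2 lower (36.5% of all genes called).

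On average over the hours in PL, again a comparison added later, the residual lip-1 mRNA was lower in U0126. Its level at 6 h was 0.906 and 1.07 CPM in U0126, against 1.64 and 2.28 in DMSO, which are 8 and 9 reads against 15 and 21. At 2 h it was 0.918 and 0.359 CPM in U0126, against 2.01 and 1.75 in DMSO. The U0126 libraries lay below all DMSO libraries at 2 of 5 hours in PL and at 4 of 4 in PF, which had 1 library per treatment and hour. Such separation was not counted over all genes. The average over hours in PL was -0.84 (SE 0.25, 95% interval -1.36 to -0.32, adjusted p = 0.0460 by edgeR), the 1 gene of the 10 called (5.84% of all genes, 1.66% lower). DESeq2 called 2, and without N2 untreated replicate 2 edgeR called 6, 4 higher and 2 lower (19.6% of all genes). It was lost without 18 of the 22 libraries, each left out in turn (-1.15 to -0.69, adjusted p of 0.00951 to 0.145), and without PL replicates 1 and 2 at 1 h (-0.63, adjusted p = 0.25). In N2 lip-1 differed by 0.07, 0.01 and 0.03 on the log2 scale at 1, 2 and 6 h. At 18 h in N2 it had 96.4 and 91.0 CPM in U0126, against 56.6 and 48.3 in DMSO (log2 fold change 0.84, adjusted p = 0.147 by edgeR; 1.29, adjusted p = 0.0286 with RLE scaling).

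**Figure D4:**
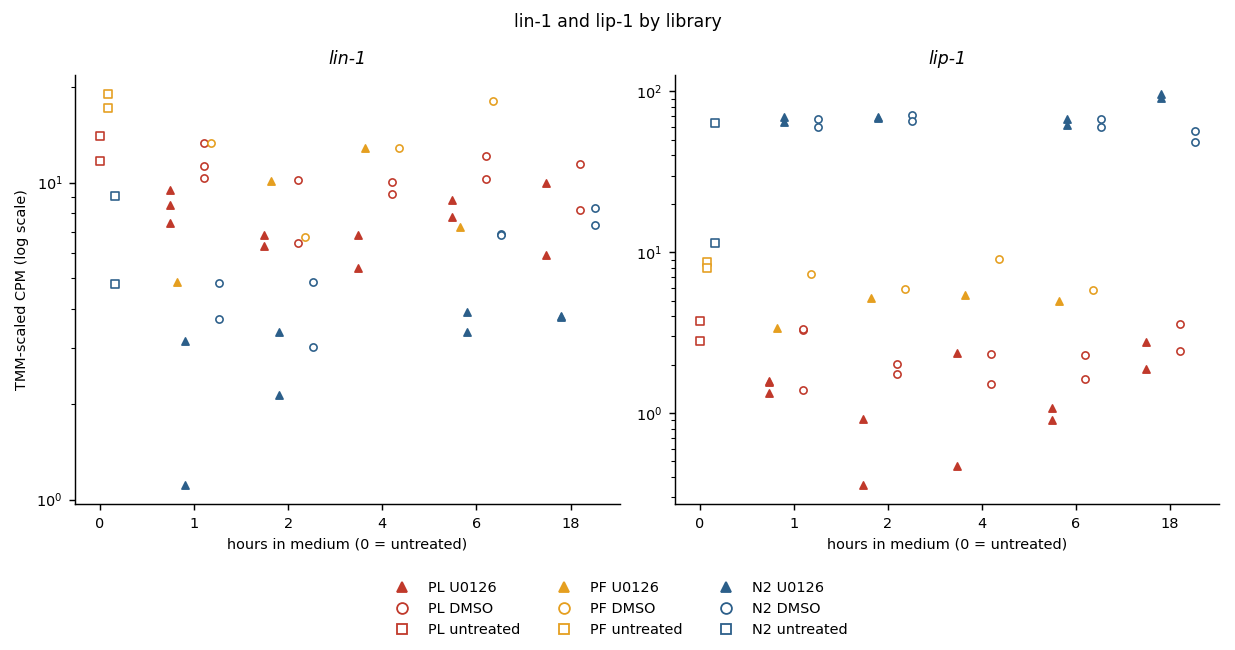
Levels of lin-1 and lip-1 (vertical axis, TMM-scaled CPM, log scale) by genotype, hour and treatment, 1 point per library; triangles are U0126, circles DMSO and squares untreated. In N2 at 6 h the lin-1 triangles (3.39 and 3.89 CPM) lie below the circles (6.90 and 6.83), and lip-1 separates the genotypes.

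At 18 h the drug response of the wild type was broad. edgeR called 45.3% of all genes, 15% higher and 30.4% lower in U0126, and the median of all genes was -0.40 (log2) with the scaling used here and 0.00 with RLE scaling. Among the 10 genes, 6 were called, 4 higher and 2 lower. Overlap between treatments was looked at for the 10 genes and not counted over all genes. The RAF gene lin-45 had 288 and 285 CPM in U0126, against 123 and 127 in DMSO (log2 fold change 1.19, SE 0.29, adjusted p = 0.00223), and the scaffold gene ksr-2 had 89.02 and 88.8 CPM in U0126, against 40.1 and 37.1 in DMSO (1.20, SE 0.28, adjusted p = 0.00196). The exchange factor gene sos-1 had 112 and 108 CPM in U0126, against 70.2 and 64.1 in DMSO (0.72, adjusted p = 0.00784), and ark-1 had 110 and 102, against 65.9 and 67.4 (0.67, adjusted p = 0.0337). These 4 genes did not overlap between treatments and stayed called without each of the 4 libraries in turn.

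The 2 genes called lower at 18 h in N2 depended on the scaling. The scaffold gene ksr-1 had 10.4 and 10.4 CPM in U0126, against 18.0 and 19.001 in DMSO (-0.83, adjusted p = 0.00130 by edgeR), and lin-1 had 3.79 and 3.77 CPM in U0126, against 8.30 and 7.37 in DMSO (-1.05, adjusted p = 0.0193). With RLE scaling neither was called (-0.38, adjusted p = 0.0884 for ksr-1; -0.60, adjusted p = 0.159 for lin-1), and 7 genes were higher and 0 lower, let-60, mpk-1 and lip-1 being added. Without any 1 of the 4 libraries the calls of ksr-1 and lin-1 were lost as well, while mpk-1 and let-60 were called higher. These fits also rescaled the libraries and moved the median of all genes from -0.40 to between -0.01 and 0.08, so the library left out and the scaling changed together. Taken relative to the median of all genes, lin-45 lay at 1.60 (1.60 to 1.80 over the settings run), ksr-2 at 1.61, lip-1 at 1.24, sos-1 at 1.12, ark-1 at 1.08, mpk-1 at 1.06 (1.06 to 1.27), let-60 at 0.64, mek-2 at 0.39, ksr-1 at -0.42 (-0.43 to -0.22) and lin-1 at -0.64 (-0.71 to -0.44). On this scale each direction was the same in every setting.

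In PL at 18 h the kinase genes lin-45, mpk-1 and ark-1 were higher in U0126, where 14% of all genes were called, 11.3% higher and 2.72% lower. The RAF gene lin-45 had 162 and 145 CPM in U0126, against 76.9 and 64.9 in DMSO, 2.16-fold higher (log2 fold change 1.11, SE 0.29, adjusted p = 0.0106 by edgeR). The ERK gene mpk-1 had 135 and 128 CPM in U0126, against 70.0 and 59.3 in DMSO, 2.03-fold higher (1.023, SE 0.28, adjusted p = 0.0143). The kinase gene ark-1 had 96.1 and 77.6 CPM in U0126, against 43.4 and 37.8 in DMSO, 2.14-fold higher (1.10, SE 0.26, adjusted p = 0.00557). The scaffold gene ksr-1 fell, with 9.56 and 9.52 CPM in U0126, against 15.9 and 14.8 in DMSO (-0.69, SE 0.19, adjusted p = 0.0151).

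These 4 genes were the ones called in PL at 18 h. None overlapped between treatments, which was not counted over all genes. The calls were less stable than the sizes. The count was 2 without DMSO replicate 1, 0 without DMSO replicate 2, 0 without U0126 replicate 1 and 1 without U0126 replicate 2, with log2 fold changes of 0.91 to 1.15 for mpk-1 (adjusted p of 0.0578 to 0.160), 0.99 to 1.24 for lin-45 and 0.93 to 1.27 for ark-1. RLE scaling and DESeq2 called 4 genes, 3 higher and 1 lower.

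**Figure D5:**
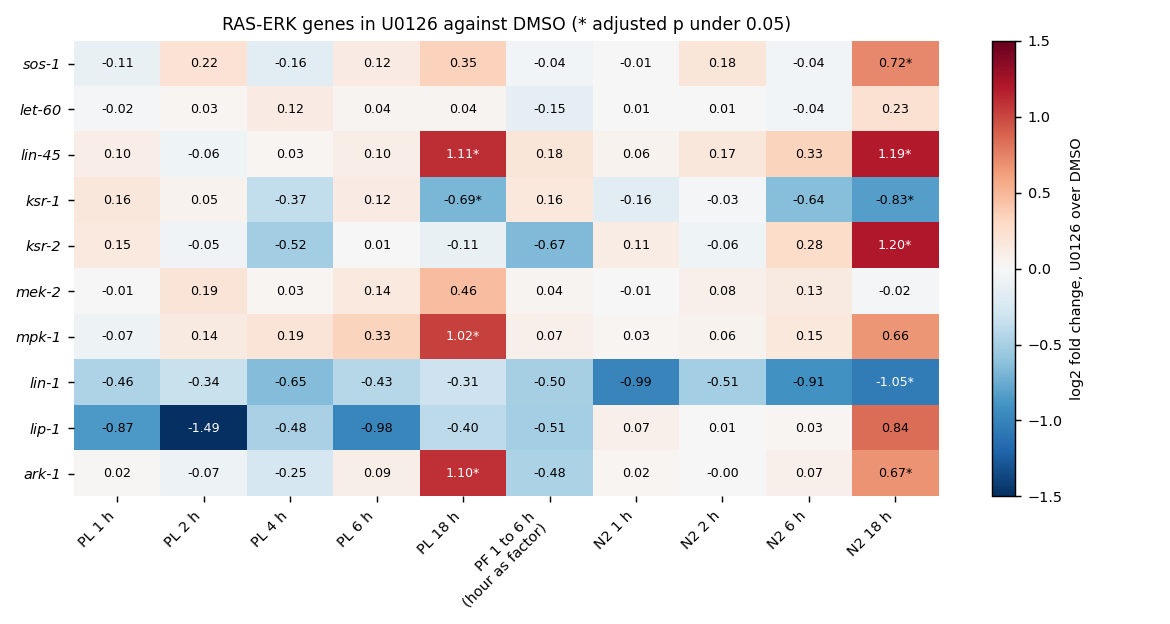
Log2 fold change of U0126 over DMSO (colour) for each gene (rows) in PL at 1 to 18 h, PF over 1 to 6 h and N2 at 1 to 18 h (columns); stars mark an adjusted p under 0.05. Stars stand in the 18 h columns, 4 in PL and 6 in N2.

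Summed oocyte and germ cell markers were higher in U0126 at 18 h. The sperm sum overlapped in PL, with 512 and 636 CPM in U0126, against 484 and 609 in DMSO. In N2 it was 67.9 and 58.8 CPM in U0126, against 33.5 and 33.2 in DMSO. The oocyte sum was 10116 and 7122 CPM in U0126, against 3886 and 3011 in DMSO, in PL, and 12012 and 11753 in U0126, against 6315 and 6082 in DMSO, in N2. The germ cell and meiosis sum was 1943 and 1947 CPM in U0126, against 1492 and 1318 in DMSO, in PL, and 2356 and 2310 in U0126, against 1279 and 1261 in DMSO, in N2. In N2, 11 of 12 germ cell genes were called higher and 0 of 12 oocyte genes (median log2 fold change 0.93; 4 higher with RLE scaling), while 8 of 10 muscle genes and 7 of 9 intestine genes were called lower. In PL, 5 of 12 germ cell and 2 of 12 oocyte genes were called higher. The part of these markers in the change of the 10 genes was not tested.

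The drug responses of PL and N2 were then set against each other. At 18 h edgeR called 0 of the 10 genes for a difference (1.79% of all genes), 1 at an unadjusted p under 0.05; DESeq2 called 3. The 1 gene was ksr-2, whose response was smaller in PL by -1.31 on the log2 scale (95% interval -2.13 to -0.49, adjusted p = 0.0839), and RLE scaling, which moved the median of all genes from 0.30 to -0.23, called it at -1.85. For lin-45 the difference was -0.08 with an interval of -0.91 to 0.74, and for mpk-1 it was 0.37 with an interval of -0.43 to 1.16. For lin-1 it was 0.73, with an interval of -0.29 to 1.76. At 6 h edgeR called 0 (0.0668% of all genes), with 1 at an unadjusted p under 0.05, ksr-1 (0.77, adjusted p = 0.768), and DESeq2 called 0.

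Under U0126 in PL, 6 of the 10 genes were higher at 18 h than at 6 h (21.2% of all genes, 17.8% higher), with log2 fold changes of 1.63 for ark-1 (adjusted p = 0.000112 by edgeR), 1.61 for lin-45 (adjusted p = 0.000334), 1.30 for mpk-1 (adjusted p = 0.00160), 1.15 for ksr-2, 0.76 for sos-1 and 0.65 for let-60. In CPM, lin-45 was at 162 and 145 at 18 h, against 45.2 and 55.2 at 6 h, and mpk-1 at 135 and 128 at 18 h, against 53.3 and 53.8 at 6 h. The 18 h libraries of both lay above every 6 h library of this comparison, which was not counted over all genes. The genes ark-1, lin-45 and mpk-1 stayed called without each of the 4 libraries in turn. RLE scaling, under which the median of all genes was -0.23 and not 0.00, gave 4 higher and 1 lower: let-60 and sos-1 lost their call and ksr-1 was lower (-0.60, adjusted p = 0.0250). DESeq2 gave 5 higher and 1 lower. In the same comparison 11 of 12 oocyte genes and 12 of 12 germ cell genes were called higher, and their part was not tested.

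With DMSO alone, ksr-2 and let-60 were higher at 18 h than at 6 h in PL (2 genes, with 3.56% of all genes called, 2.89% higher). The first had 71.8 and 60.2 CPM at 18 h, against 25.2 and 29.8 at 6 h (log2 fold change 1.26, SE 0.29, adjusted p = 0.0179 by edgeR), and the second 72.4 and 57.7, against 39.7 and 42.9 (0.66, SE 0.16, adjusted p = 0.0246). The groups did not overlap, but RLE scaling, which moved the median of all genes from 0.18 to -0.04, called neither gene, and the count was 1 without replicate 2 at 18 h and 0 without each of the other 3 libraries, with ksr-2 at 1.13 to 1.39. In N2 edgeR called 0 genes with hour in DMSO (5.96% of all genes; 1 at an unadjusted p under 0.05, 1 by DESeq2) and 0 in U0126 (4.82%; 0 at an unadjusted p under 0.05, 1 by DESeq2). These counts differed between fits: those of the compared libraries alone called 6 in DMSO (56% of all genes) and 7 in U0126 (54.5%), and those without N2 untreated replicate 2 called 1 (16.6%) and 3 (13.7%). The change from 6 to 18 h differed between PL and N2 for ksr-2 and sos-1 in DMSO (2 genes, with 4.81% of all genes called, 3.18% higher in PL) and for 0 genes in U0126 (0.626%; 3 at an unadjusted p under 0.05, 1 by DESeq2), comparisons added after the values were seen.

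Of 5 lists of other signalling genes, 3 lay mainly on the lower side in PL. In DMSO at 2 h, 6 of 10 factors that act on RAS and RAF were called lower in PL than in N2 and 1 higher (2 higher with RLE scaling), among them sur-6 (-1.76), a PP2A subunit gene, and rap-1 (-1.83), a RAS-related GTPase gene. Of 7 inhibitors tested, 4 were lower and 0 higher, with gla-3 (-2.11), a zinc finger protein gene, and lst-4 (-2.32), and of 8 nuclear effectors 5 were lower and 0 higher, with eor-1 (-1.68), lin-25 (-1.38) and sur-2 (-1.79), the last 2 being genes of the Mediator complex. The ligands and the receptor complex were split, with 5 of 12 higher and 4 lower in PL, the lower ones including lin-7 (-2.19), which localizes the EGF receptor, and ptp-2 (-2.09), a SHP2-type phosphatase gene. Other MAP kinase cascades had 5 of 15 higher, such as kgb-1 (0.69), a JNK-type kinase gene, and 1 lower. Of all genes, 34.6% were higher and 31.5% lower in this comparison. The splits of the lists differed by at most 1 gene with RLE scaling. The medians of these lists were -0.80, -1.57, -1.18, 0.39 and 0.47 in the order given, against 0.46 over all genes.

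PF, set against N2 libraries that PL shares, had 7 of 10 RAS and RAF factors, 5 of 6 inhibitors and 5 of 8 nuclear effectors lower in DMSO, and 0, 0 and 1 higher. In that comparison 37.9% of all genes were lower and 36.4% higher. There cnk-1 (-1.66), a RAF scaffold gene, and lst-4 (-2.12) were among the lower ones. Between PL and PF untreated, no gene of these lists was called except pmk-2 (1.18), a p38-type kinase gene.

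For U0126 over DMSO at 18 h in N2, the RAS and RAF factors had 6 of 10 higher and 3 lower (7 and 2 with RLE scaling). In the TMM-scaled fit 15% of all genes were higher and 30.4% lower in that comparison. Among the RAS and RAF factors par-1 (0.58), a kinase gene, was higher. Lower ones were gap-1 (-1.62), a RAS GTPase-activating protein gene, and soc-2 (-1.33), a leucine-rich repeat scaffold gene. The ligands and receptor complex had 0 of 12 higher and 6 lower, a count that was 4 and 5 with RLE scaling, with the receptor gene let-23 at -1.03. Of 15 genes of other MAP kinase cascades 12 were lower and 0 higher (5 and 0 with RLE scaling), with kgb-1 at -1.38 and jnk-1 at -2.44. In PL at 18 h let-23 (-0.72), sem-5 (-0.92), the GRB2-type adaptor gene, and soc-2 (-0.80) were lower, and gla-3 (1.45) was higher. There 11.3% of all genes were higher and 2.72% lower in the TMM-scaled fit. By list, PL had 1 of 12 ligand and receptor genes higher and 2 lower, 3 of 10 RAS and RAF factors higher and 1 lower (0 and 1 with RLE scaling), 3 of 7 inhibitors higher and 1 lower (2 and 1), 0 of 8 nuclear effectors higher and 1 lower (0 and 2), and 0 of 15 genes of other cascades higher and 3 lower (0 and 6).

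The 10 genes varied together to different degrees. Over 28 group means without the N2 untreated group, log2 levels of lin-45 and mpk-1 had the highest correlation among the 10 genes (r = 0.981). That of lin-1 ran against every other gene but ksr-1 (r of -0.752 to -0.455), and ksr-1 stood apart from the other 8 (r of -0.008 to 0.169). Groups of 1 genotype share their worms' make-up, so these values describe the groups. Among 10419 genes the closest to lin-45 were K12D12.5 and par-4 (both 0.991), and the closest to mpk-1 were vab-1 and mip-1 (both 0.990). The closest to let-60 was ubc-6 (0.966), to mek-2 rnp-6 (0.974), to ksr-2 let-526 (0.958), to ark-1 mig-38 (0.974) and to sos-1 ssl-1 (0.965). For ksr-1 the closest, sec-16A.2, reached 0.759, and for lin-1 Y45F10A.7 reached 0.873. For lip-1, taken over the 8 N2 groups of treated worms, tyr-5 and cya-1 reached 0.996 among 8765 genes.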

How the data were processed

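PolyA RNA of whole worms was sequenced in 52 libraries in 29 groups. The authors deposited whole-number read counts per gene for each library, not normalized; CASAVA, TopHat, DESeq and genome build ce10 are named, without versions, in the submitters' processing notes. No source used here gives the counting program or its strand setting. Of 45461 gene IDs, 44936 matched the WBcel235 annotation, which gave names and exon lengths. The 5 lines that name no gene entered neither library sizes nor tests; reads in no feature came to 48.2 to 54.8% of each table's total, and ambiguous reads to 0.31 to 0.451%, in the 51 libraries that fill these lines.

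Levels are CPM on library sizes scaled by TMM. The 16462 genes that reached a CPM of 1 in 2 or more libraries were tested with edgeR 4.0.16 (quasi-likelihood F test, R 4.3.3) on all 52 libraries with 1 coefficient per group, and p-values were adjusted by the Benjamini-Hochberg method over all genes tested in a comparison. A gene was called at an adjusted p under 0.05. Comparisons of PF over hours were fitted on their own libraries with hour as a factor. DESeq2 1.42.0, RLE scaling, no filter, fits of the compared libraries alone, a replicate block and leaving out libraries were alternatives. The procedure was tested on simulated data. The common dispersion was 0.129, or 0.0626 without N2 untreated replicate 2.

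The 10 genes and all lists were chosen with earlier results of these data known. All 10 genes are named; of other pathway lists, genes were named among the 3 called with the smallest adjusted p. The averages over hours and the difference between PL and N2 of 18 h against 6 h were added after the data were seen. Same-numbered U0126 and DMSO libraries deviated together in PL at 1 h, the group with 3 pairs (r of 0.810, 0.856 and 0.923). Replicates 1 and 2 of unlike number did so too (r of 0.671 and 0.704), so the PL values at 1 h do not show pairs. At the other hours, with 2 libraries per treatment, same-numbered libraries had r of 0.530 and 0.641 in N2 at 1 and 2 h. Their r was 0.609 in PL at 18 h and 0.195, 0.245 and 0.140 in PL at 2, 4 and 6 h. In N2 it was -0.161 at 6 h and -0.002 at 18 h. Whether same-numbered libraries were pairs or shared a batch was not tested. The reported tests took no pairs, and the replicate block was an alternative.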

Additional observations from a re-analysis of the deposited data

Results flagged for a closer look

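The change from 6 to 18 h in DMSO differed between PL and N2 for 2 of the 10 genes, by an interaction contrast in edgeR that was added after the data were seen (4.81% of all genes called; 5 of the 10 genes at an unadjusted p under 0.05; 2 by DESeq2). For the scaffold gene ksr-2 the difference was 1.69 on the log2 scale (SE 0.40, 95% interval 0.87 to 2.52, adjusted p = 0.0168). It had 71.8 and 60.2 CPM at 18 h, against 25.2 and 29.8 at 6 h, in PL, and 40.1 and 37.1 CPM at 18 h, against 52.5 and 51.4 at 6 h, in N2. All libraries moved up in PL and down in N2. Leaving out each of the 8 libraries in turn gave 1.56 to 1.82 with adjusted p of 0.0344 to 0.116, and the call was kept in 2 of 8, without PL replicate 2 at 6 h or PL replicate 2 at 18 h.

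For the exchange factor gene sos-1 the difference was 1.00 (SE 0.29, 95% interval 0.39 to 1.60, adjusted p = 0.0468). It had 98.7 and 84.4 CPM at 18 h, against 61.8 and 65.1 at 6 h, in PL, and 70.2 and 64.1 CPM at 18 h, against 97.2 and 88.3 at 6 h, in N2. The call was lost without any 1 of the 8 libraries (adjusted p of 0.0659 to 0.207). The oocyte marker sum in DMSO at 18 h was 3886 and 3011 CPM in PL, against 6315 and 6082 CPM in N2, and its part was not tested.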

How the results depend on the processing

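Of 3350 values of the 10 genes under other settings, 2940 stayed on the same side of the threshold, 186 lost and 211 gained a call, and 13 called in either fit changed sign; the cause was not tested. Of the 2940, 247 called in neither fit differed in sign. Counts of called genes are given here for U0126 over DMSO unless a genotype pair or hour pair is named. The share of all genes called changed with the setting too, so these counts are not results about the 10 genes alone. RLE scaling gave 8 for PL over N2 in U0126 at 18 h (4 as reported), 0 for 18 over 6 h in PL in DMSO (2), 1 for the drug difference at 18 h (0), 5 for the N2 average (3) and 1 for the DMSO hour difference (2). Without the filter on low counts there were 5 for PL over N2 at 6 h, 2 at 18 h, 0 for hour in PL in DMSO, 1 in PF, 0 for the PL average and 0 for the DMSO hour difference. DESeq2 gave 8 for PL over N2 in U0126, 1 for hour in N2 in DMSO and 1 in U0126, 1 for hour in PL in DMSO, 3 for the drug difference at 18 h, 8 for the N2 and 2 for the PL average, and 1 for the U0126 hour difference.

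Without N2 untreated replicate 2 in any fit there were 1 for PL over PF and 9 for PL over N2 untreated, 1 in N2 at 6 h, 1 and 3 for hour in N2 in DMSO and U0126, 6 for hour in PL in DMSO, 1 for the drug difference at 18 h, 7 and 6 for the N2 and PL averages, and 6 and 3 for the hour differences in DMSO and U0126. Fits of the compared libraries alone gave 7 for PL over N2 in U0126, 2 for PL over PF untreated, 0 for PL over N2 and PF over N2 untreated, 5 in N2 at 6 h and 10 at 18 h, 6 and 7 for hour in N2 in DMSO and U0126, 6 for hour in PL in DMSO, 3 for the drug difference, 8 and 4 for the averages in N2 and PL, and 6 and 5 for the hour differences. Those fits also called more of all genes in N2 at 6 h and for hour in N2, as given above. Without PL replicates 1 and 2 at 1 h the PL average had 0.

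Leaving out each compared library (for PF, each hour) in turn gave 5 to 7 for PL over N2 at 6 h in DMSO, 1 to 3 at 18 h, 2 to 4 in U0126, 2 to 9 untreated for PL and 2 to 9 for PF, 0 to 2 in PL at 18 h, 0 to 1 in PF and for PL over PF in DMSO, 0 to 1 for hour in PL in DMSO, 2 to 4 and 0 to 1 for the N2 and PL averages, and 0 to 1 for the DMSO hour difference. Untreated, log2 fold changes ran from the value without N2 replicate 2 to one of the other sign without N2 replicate 1: in PL over N2 for lin-45 (-1.49 to 0.33), mek-2 (-0.55 to 0.44), mpk-1 (-1.73 to 0.10), ksr-2 (-0.95 to 0.66), ark-1 (-1.39 to 0.11) and sos-1 (-0.65 to 0.51), and in PF over N2 for lin-45 (-1.76 to 0.059), mek-2 (-0.66 to 0.32), mpk-1 (-1.79 to 0.031), ksr-2 (-0.93 to 0.68), ark-1 (-1.36 to 0.14) and sos-1 (-0.55 to 0.62).

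A replicate block by genotype, hour and number gave 6 calls in N2 at 6 h, 1 in PL at 2 h and 1 at 4 h, 10 for the N2 and 6 for the PL average, and changed no call in PL at 1 h. At 18 h in N2, mek-2 was at 0.51 with the block and 0.20 in a fit of its own libraries. Numbers in N2 at 6 h may be crossed (r of -0.161 for same-numbered libraries), and a crossed replicate block, added later, gave 6 calls, 4 higher and 2 lower, as the labelled block did. Depth limits lin-1 and, in the mutants, lip-1, which had as few as 3 reads in a PL library.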
